A study of Danio rerio with 6 samples.

Results

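The 200 zebrafish genes described here were those that stood highest in 1 library of each injection group at once. RNA was sequenced from pools of AB/TL embryos that had been injected with mRNA as 1-cell eggs and were collected at 6 hours post-fertilization (hpf). The Mcpip1 WT group (3 libraries, WT1 to WT3) received mRNA for zebrafish Mcpip1, an RNase encoded by *zc3h12a*. The Mcpip1 DN group (3 libraries, DN1 to DN3) received the same mRNA carrying D112N, a substitution that inactivates the catalytic site. Both groups therefore carried injected *zc3h12a* mRNA, linked to a fluorescent reporter, so neither was an uninjected control, and viable embryos alone were collected. Members were chosen by their measured counts in all 6 libraries, expressed as CPM (a gene's count divided by the library's summed gene counts and multiplied by 1000000). Genes were ranked by a score, the log2 ratio of the lower CPM of WT2 and DN1 to the highest CPM of the other 4 libraries, with 1 added to each. Of 32057 gene rows, 12601 had a mean count of 50 or more and could be ranked, and the 200 highest scores were kept. Since these counts selected the members, the difference between WT2 plus DN1 and the other libraries is a description throughout and was given no test.

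At 6 hpf, or shield stage, the zebrafish embryo has begun gastrulation. Transcripts loaded into the egg by the mother are being degraded, the zygotic genome is active, and cells at the blastoderm margin move inward to form mesoderm and endoderm. The dorsal organizer, or shield, secretes antagonists of Bmp signals, while Nodal and Fgf signals from the margin switch on T-box and GATA transcription factors. An outer enveloping layer covers the blastoderm and a yolk syncytial layer lies beneath it. Members were found in most of these programmes, and were joined by a larger set of genes for RNA synthesis, splicing, ribosome assembly and chromatin.

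Scores of the members ran from 0.83 for *lhx1b* to 0.23 for *DDX17*, with a median of 0.34, against a median of -0.89 over all 12601 ranked genes. A score above 0, meaning both libraries above each of the other 4, was reached by 722 genes (5.73% of those ranked). The differences were modest in size. The lower library of the pair exceeded the highest of the other 4 by 1.17-fold to 1.88-fold, and by 1.5-fold or more in 21 members. The mean of WT2 and DN1 was 1.26-fold to 3.94-fold the mean of the other 4 libraries, with a median of 1.72-fold, and was at least 2-fold in 59 members. Just inside the limit stood *FGFR2*, *nop2* and *DDX17*, with scores of 0.2314, 0.2309 and 0.2297. Just outside it stood *tnpo2b*, *YBX1* and *spred2a*, with scores of 0.2286, 0.2283 and 0.2271, so the limit cut through a continuous range.

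Symbols in capitals are human-style names that the name table gives to zebrafish gene IDs. For 25 members the same symbol was also carried by another ID, so the symbol alone does not identify the gene. Reads without a unique alignment, 4.54% to 7.92% of each library, were given to no gene. Whether these IDs are alike enough in sequence to lose reads this way was not examined, so those values are uncertain. A further 3 members had no symbol and 26 had clone-based or zgc names. Strand use in counting is not given in the sources used here, so reads of overlapping or antisense genes cannot be told apart.

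WT2 and DN1 were close to each other across the members, which ranking by the lower of the 2 favoured. DN1 was the higher of the pair in 114 members and WT2 in 86, the median fold between them was 1.13, and it was under 1.2 in 128 members. The other 4 libraries were less uniform. DN2 was the highest of the 4 in 83 members, WT1 in 52, DN3 in 42 and WT3 in 23, while WT3 was the lowest in 73, WT1 in 49, DN3 in 45 and DN2 in 33. On log2(CPM + 1) less each gene's mean, the median member stood at 0.46 in WT2 and 0.53 in DN1. It stood at -0.20 in WT1, -0.33 in WT3, -0.08 in DN2 and -0.24 in DN3. The 2 high libraries came from opposite injection groups and carried different replicate numbers. Across genes, log2 CPM correlated (Pearson) by 0.961 between WT2 and DN1, and by 0.962 between WT3 and DN3. In a bulk library, fewer cells of a type and less RNA per cell cannot be told apart.

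**Figure D1:**
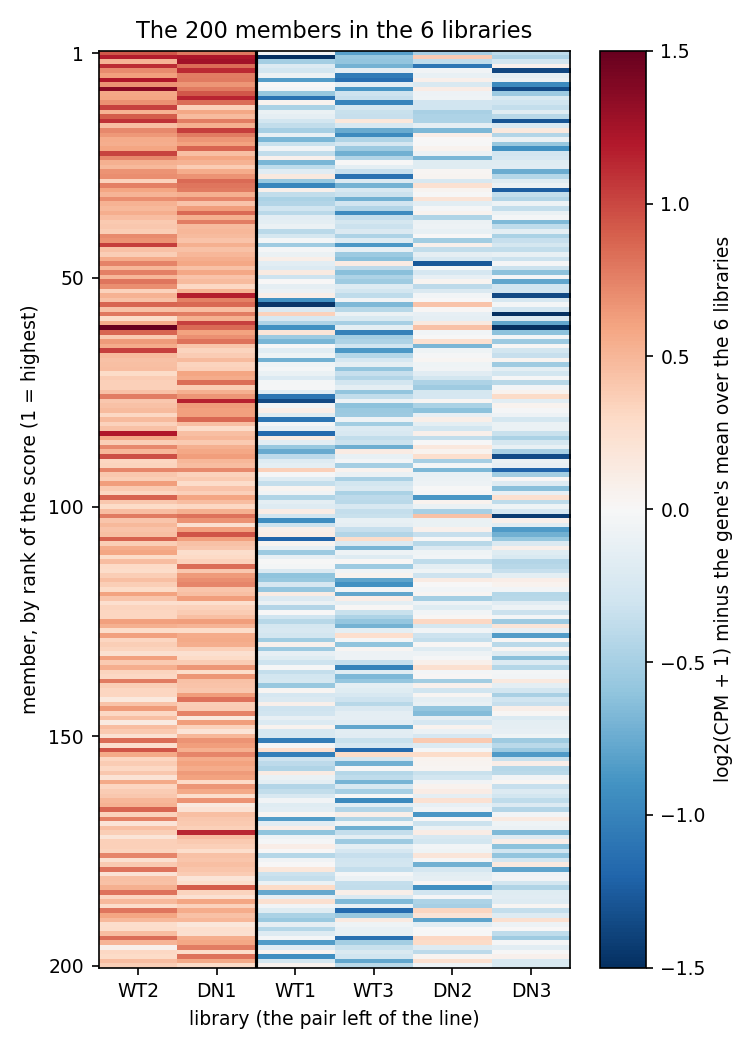
Each row is a member, ordered by score from 1 at the top to 200, and each column a library, with WT2 and DN1 left of the line. Colour gives log2(CPM + 1) minus the gene's mean over the 6 libraries, limited to 1.5 either way. The medians of 0.46 in WT2 and 0.53 in DN1 appear as red columns, and those of the other 4 libraries, from -0.33 to -0.08, as pale to blue ones.

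Measures of the whole library are given here once, and the pair stood apart in some of them. Gene counts were 24662219 in WT2 and 17686041 in DN1, against 20323254 to 23944732 in the other 4. WT2 was thus the deepest library and DN1 the shallowest. The 500 most abundant genes took 48.8% of counts in WT2 and 47.7% in DN1, against 38.5% to 45.5% in the others. TMM factors, edgeR's correction for such composition, were 0.877 and 0.909 in WT2 and DN1, against 0.967 to 1.17 in the others. The median of all ranked genes was lower in the pair by 0.25 on log2(CPM + 1), while the members' median was higher by 0.76. With TMM-scaled library sizes the corresponding values were -0.02 and 0.99, and the members' median fold became 2.02. Because the factors of the pair were the lowest, this scaling raises WT2 and DN1 against the others. The members, chosen on CPM, could only stay higher in the pair, so the second scale is no separate support. The part of library composition in the members' pattern was not tested. Blastoderm, enveloping layer and endoderm markers were present in all 6 libraries. Of the blastoderm markers, *tbxta*, *tbx16*, *vox* and *GSC* were highest in the pair. *chrd*, with 469 CPM, was highest in WT1. *SOX3* and *vent* had 547 and 42.9 CPM in DN3, above 418 and 38.6 CPM in WT2. Of the endoderm markers, *GATA5* was highest in the pair. *sox32* had 118 CPM in WT1 and 109 CPM in DN2, above 96.5 CPM in DN1. *SOX17* had 5.81 CPM in DN3, above 4.92 CPM in DN1. The later tissue markers *MYOD1*, *hbae3*, *fabp10a* and *CRYAA* lay at 0 or under 0.1 CPM in each library. The neuronal marker *ELAVL3* had 0.284 CPM in WT2 and 0 CPM in DN1, against 0, 0.872, 1.67 and 0.738 CPM in WT1, WT3, DN2 and DN3.

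Counts of *zc3h12a*, in which injected and endogenous transcripts were not separated, did not follow the pair. The main *zc3h12a* gene ID had 883 CPM in WT2 and 1498 CPM in DN1, against 7435 CPM in WT1, 1202 CPM in WT3, 727 CPM in DN2 and 397 CPM in DN3. WT2 and DN1 thus lay inside the range of the other libraries. Because both groups were injected with *zc3h12a* mRNA, its level cannot check the labels. A second ID with the same symbol stayed between 0.399 and 9.20 CPM.

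Members included transcription factors of mesoderm, endoderm, ectoderm and the dorsal axis. A group of 18 such factors, drawn up after the members were known and not set against a fixed list, had a median fold of 1.76 for the pair over the other libraries. In 12 of the 18 the lowest library was WT3. *tbxta*, the T-box factor of the notochord and margin known as Brachyury, had 556 CPM in WT2 and 548 CPM in DN1, against 379.8, 157, 352 and 254 CPM in WT1, WT3, DN2 and DN3. The pair was nearly equal, and WT3 had well under the level of any other library. *tbx16*, the T-box factor of paraxial mesoderm, had 1992 and 2190.3 CPM in WT2 and DN1, against 1527, 972, 937 and 1412 CPM in WT1, WT3, DN2 and DN3. Here DN2 and WT3 were the low libraries, and DN3 was close to WT1.

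*lhx1b*, a LIM homeodomain gene, had the highest score. It was counted at 14.6 CPM in WT2 and 13.2 CPM in DN1, against 6.997 CPM in WT1, 3.66 CPM in WT3, 4.76 CPM in DN2 and 5.26 CPM in DN3. Counting error alone gave 95% Wilson intervals of 11.6 to 15.0 CPM in DN1 and 5.99 to 8.18 CPM in WT1. *foxd5*, a forkhead factor of the dorsal side and later of neural precursors, had 179.6 and 199.5 CPM in WT2 and DN1, against 110.0, 56.1, 108.3 and 105.9 CPM in WT1, WT3, DN2 and DN3. Of the other 4 libraries, 3 were nearly equal and WT3 alone was far lower. *foxa3*, a forkhead factor of axial mesendoderm, had 224 and 275 CPM in WT2 and DN1, against 115, 79.1, 158 and 142 CPM in WT1, WT3, DN2 and DN3. *FOXD3*, a forkhead factor of the shield and later of the neural crest, had 88.7 and 74.5 CPM in the pair and reached 62.8 CPM in DN2.

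The members held 3 GATA genes. *GATA5* and *GATA6* act in endoderm and heart formation and *GATA3* in the ventral ectoderm. *GATA5* had 155 CPM in WT2 and 154 CPM in DN1, against 112, 67.7, 88.0 and 83.7 CPM in WT1, WT3, DN2 and DN3. *GATA6* had 329.9 and 308 CPM in WT2 and DN1, against 234, 159, 231 and 215 CPM in WT1, WT3, DN2 and DN3. For both, WT3 was the lowest library. For *GATA3*, with 189 and 159 CPM in WT2 and DN1, the lowest was instead DN2 with 81.5 CPM. The ventral side was also represented by *vox*, a homeodomain repressor of organizer genes, with 437 and 455 CPM in the pair and 200.2 to 367 CPM in the other libraries. Dorsal and ventral regulators were thus both among the members.

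**Figure D2:**
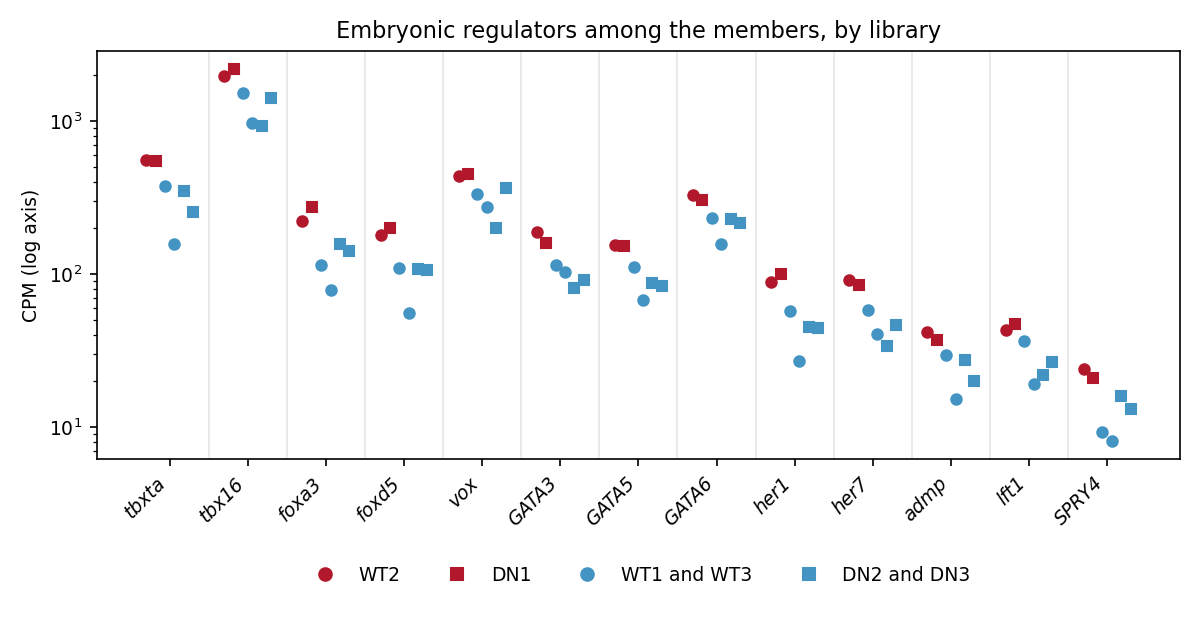
CPM on a log axis of 13 embryonic regulators in each library, with circles for Mcpip1 WT and squares for Mcpip1 DN. Red points are WT2 and DN1 and blue points the other 4 libraries. For each gene the red points lie above all blue ones, as the ranking required, and WT3 is the lowest point in genes such as *tbxta*, at 157 CPM, and *foxd5*, at 56.1 CPM.

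Genes of signalling, which encode secreted signals, receptors, inhibitors, a scaffold protein and an enzyme of retinoic acid synthesis, made up 11 members. *NOG*, an antagonist that binds Bmp ligands outside the cell, had 11.3 CPM in WT2 and 11.6 CPM in DN1, against 0.620, 2.66, 6.10 and 2.95 CPM in WT1, WT3, DN2 and DN3. Its symbol is shared by another ID. *admp*, a Bmp-like ligand made in the organizer, had 41.6 and 37.2 CPM in WT2 and DN1, against 29.6, 15.3, 27.6 and 19.9 CPM in WT1, WT3, DN2 and DN3. *lft1*, the secreted Nodal inhibitor Lefty, had 43.3 and 46.9 CPM in WT2 and DN1, against 36.4, 19.1, 21.97 and 26.7 CPM in WT1, WT3, DN2 and DN3. In both genes WT1 came nearest to the pair and WT3 lay lowest.

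The Fgf branch held the receptor gene *FGFR2* and the feedback inhibitors *SPRY2* and *SPRY4*, which Fgf signalling itself induces. *SPRY4* had 24.1 and 21.0 CPM in WT2 and DN1, against 9.26, 8.15, 16.0 and 13.0 CPM in WT1, WT3, DN2 and DN3. *SPRY2* had 45.4 and 42.4 CPM in the pair and 19.5 to 35.2 CPM in the other libraries. *FGFR2* was at the limit of the ranking, and its Wilson intervals were 5.59 to 7.62 CPM in WT2 and 4.49 to 6.52 CPM in DN3. The Wnt branch was represented by *SP5*, a factor induced by Wnt signals, with 23.2 and 29.8 CPM in the pair and 11.2 to 18.6 CPM elsewhere.

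Genes of the segmentation clock and its relatives, 6 members of the Hairy and Notch families, had a median fold of 2.07. The clock is a set of Hairy/Enhancer of split repressors whose cyclic expression in the presomitic mesoderm, coupled between cells by Delta ligands and Notch, times the formation of somites. *her1* had 89.4 CPM in WT2 and 99.6 CPM in DN1, against 57.3, 27.2, 45.1 and 44.6 CPM in WT1, WT3, DN2 and DN3. *her7*, its neighbour in the RefSeq gene order of GRCz12tu, had 92.1 and 84.4 CPM in WT2 and DN1, against 58.1, 40.6, 34.0 and 46.5 CPM in WT1, WT3, DN2 and DN3. WT1 was the next library after the pair for both genes, and the lowest was WT3 for *her1* and DN2 for *her7*. *dlb*, a Delta ligand with fewer counts, had 10.3 and 6.56 CPM in WT2 and DN1, against 3.28, 1.39, 3.76 and 0.738 CPM in WT1, WT3, DN2 and DN3. *her8a* had 38.5 and 38.1 CPM in the pair, and split the others by injection group, with 6.82 and 12.5 CPM in WT1 and WT3 and 28.1 and 20.1 CPM in DN2 and DN3. *HEY1*, a Hairy-related repressor, had 27.7 and 32.0 CPM in the pair and 12.8 to 21.0 CPM in the other libraries.

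Genes of adhesion, matrix and cell shape were 11 members with a median fold of 1.67. *HAS2*, the hyaluronan synthase that gastrulating cells need for dorsal convergence, had 75.9 and 82.9 CPM in WT2 and DN1, against 54.1, 41.6, 58.6 and 55.0 CPM in WT1, WT3, DN2 and DN3. *vcana*, which encodes a proteoglycan that binds hyaluronan, had few counts, with 4.54 and 6.79 CPM in the pair and 3.22 to 3.54 CPM in the other libraries. The beta tubulin gene *tubb4bl* and the collagen gene *col14a1b* were among the 12 highest scores. *tubb4bl* had 10.1 and 8.20 CPM in WT2 and DN1, against 3.45, 2.14, 1.42 and 4.38 CPM in WT1, WT3, DN2 and DN3. *col14a1b* had 4.38 and 4.35 CPM in the pair, and no more than 2.35 CPM in any other library.

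The rest of the 12 highest scores had no role in common. *znf1081*, a numbered zinc finger gene, had 13.4 and 23.2 CPM in WT2 and DN1, and between 5.71 and 7.33 CPM in the others. *NDUFA2*, a subunit of respiratory complex I, had 9.41 and 12.8 CPM in the pair, and between 1.48 and 5.18 CPM in the others, with DN3 lowest. *QSER1* had 8.96 and 13.6 CPM in the pair and 2.08 to 5.35 CPM in the others. A gene with a clone-based name, the tenth in rank, had 5.92 and 7.80 CPM in the pair and 2.13 to 3.38 CPM in the others. ENSDARG00000083519, for which no symbol was given, had 34.9 and 25.8 CPM in WT2 and DN1 and 6.15 to 15.5 CPM in the others.

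RNA synthesis and processing was the largest group of related members, with 20 genes and a median fold of 1.48, the lowest median of the 11 groups. *POLR2A*, the largest subunit of RNA polymerase II, had 1208 CPM in WT2 and 1327 CPM in DN1, against 666, 967, 961 and 963 CPM in WT1, WT3, DN2 and DN3. Here 3 of the other libraries were nearly equal and WT1 was the low one. The splicing coactivator *srrm1* had 1002 and 1047 CPM in WT2 and DN1, against 546, 577, 686 and 463 CPM in WT1, WT3, DN2 and DN3. Among 3 members that encode small nuclear ribonucleoproteins, *SNRPA* and *SNRPC* belong to the U1 particle and *SNRPF* to the Sm core. *SNRPA* had 581 and 593 CPM in the pair, against 317 to 408 CPM in the other libraries. The RNA-binding genes *LUC7L* and *RBM5* had folds of 1.51 and 1.52.

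The highest mean CPM was that of *HNRNPAB*, a nuclear RNA-binding protein, with 5668 and 5439 CPM in WT2 and DN1, against 4241, 3999, 3954 and 2984 CPM in WT1, WT3, DN2 and DN3. The RNA-binding genes *sfpq* and *rbmx* were also among the 10 members with the highest mean CPM, with folds of 1.49 and 1.45. Chromatin proteins in that set were *HMGB2*, the histone chaperone *ANP32B* and the replacement histone gene *h3f3d*. *HMGB2* had 1712 and 1952 CPM in WT2 and DN1, against 1196, 961, 1173 and 482 CPM in WT1, WT3, DN2 and DN3. For *HMGB2*, *ANP32B* and *h3f3d* alike the lowest library was DN3, not WT3. *HSPB1*, a small heat shock protein, had 1157 and 1305 CPM in the pair and 589.5 to 935 CPM in the others, and *MPLKIP* had 1234 and 978 CPM in the pair and 481 to 794 CPM in the others.

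Nucleolar genes for ribosome assembly supplied 11 members with a median fold of 1.56. *NOP56*, a core protein of the particles that methylate ribosomal RNA, had 752 and 722 CPM in WT2 and DN1, against 468, 528, 584 and 584 CPM in WT1, WT3, DN2 and DN3. *nop2*, a ribosomal RNA methyltransferase, had 114 and 122 CPM in the pair and 47.4 to 96.8 CPM in the others, and the processing factors *RRP15* and *rrp1* had folds of 1.55 and 1.37. Mitochondrial energy and translation genes were 9 members, with mean levels of 4.33 to 25.0 CPM and a median fold of 2.07. *ATP5PF*, an ATP synthase subunit, had 21.4 and 20.9 CPM in WT2 and DN1, against 15.4, 11.2, 10.9 and 2.95 CPM in WT1, WT3, DN2 and DN3. DN3 was again the lowest, and none of these 9 had its lowest value in WT3. The wider lists were mixed. On CPM, 38 of 88 ranked nuclear oxidative phosphorylation genes had a higher mean in the pair and 50 a lower one. Of 71 mitochondrial ribosomal protein genes, 26 had a higher mean and 45 a lower one. Over all 12601 ranked genes the counts were 4004 and 8597. The balance depended on the scale. With TMM scaling 60 oxidative phosphorylation genes were higher and 28 lower, and 38 and 33 mitochondrial ribosomal protein genes. Over all ranked genes the TMM counts were 5943 and 6658.

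Immediate early genes are switched on by growth signals and by stress without new protein synthesis, and the list of immediate early and AP-1 genes held *IER5*, *ier2a*, *klf2a* and *BTG1*. *IER5* had 279.6 and 342 CPM in WT2 and DN1, against 145, 149, 210.2 and 208 CPM in WT1, WT3, DN2 and DN3. The antiproliferative gene *BTG1* had 223 and 226 CPM in the pair and 123 to 174 CPM elsewhere, and *klf2a*, a Kruppel-like factor, 25.1 and 28.4 CPM in the pair and 13.7 to 19.3 CPM elsewhere. The repressor *E2F7*, which limits S-phase gene expression, had 47.0 and 69.0 CPM in the pair, and 25.9 to 37.3 CPM elsewhere. Numbered zinc finger genes of the C2H2 type contributed 9 members with a median fold of 1.92. On a wider list, matched by zinc finger names and not checked for C2H2 domains, 12 of 226 ranked genes were members. Of the 226, 97 had a higher mean in the pair on CPM and 129 a lower one, beside 4004 and 8597 of all 12601 ranked genes. With TMM scaling 125 were higher and 101 lower, beside 5943 and 6658 of all ranked genes.

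Counting error weighs most on the 59 members with a mean under 10 CPM. The count in the lower library of the pair was as low as 57. The Wilson intervals given above cover counting error only, since reads made by PCR are not independent molecules, and they set no test, because the ranking used the same values.

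To see which programmes the members came from, 36 gene lists were set against the ranking. Of these 25 held a member, 11 held none, and 59 members were on at least 1 list. The lists were written with earlier results of these data known, so their counts are a description. Members were 1.59% of all ranked genes, and each of the embryonic lists named next held a larger share. Endoderm genes held 3 members among 10 ranked, Notch pathway genes 4 among 16, and genes of late gastrula and early somite stages 3 among 13. Zygotic genes of the blastula held 6 members among 33 (*vox*, *FOXD3*, *lft1*, *GATA6*, *GATA5* and *foxa3*). Organizer, Fgf and Nodal genes held 3 each, among 17, 17 and 18. These lists share genes, so the counts are not separate. The endoderm members were *GATA5*, *GATA6* and *foxa3*, all on the zygotic list as well. *dlb*, *her1* and *her7* were on both the late gastrula and the Notch list. *tbxta* was on the organizer, margin and Nodal lists. Immediate early and AP-1 genes held 4 members among 20, but the list as a whole was not highest in both libraries. Its summed level was 1211 and 1467 CPM in WT2 and DN1, against 932, 1256, 1229 and 1414 CPM in WT1, WT3, DN2 and DN3.

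The tendency toward the pair went beyond the members in several lists. All 19 margin and mesoderm genes had a higher mean in WT2 and DN1 than in the other libraries, as did 16 of 17 organizer genes, 30 of 33 zygotic blastula genes and 13 of 15 neuroectoderm genes, although the last list held no member. Over all ranked genes 4004 of 12601 did so. A higher mean does not require both libraries to be above each of the other 4. That was so for 5 margin, 7 organizer, 10 zygotic blastula and 3 neuroectoderm genes, beside 722 of all ranked genes. The counts of the lists include their members, 2 margin, 3 organizer and 6 zygotic blastula genes, which the ranking placed higher in the pair. With TMM scaling, a check added after the data were seen, the counts were 19 of 19, 17 of 17, 32 of 33 and 13 of 15, beside 5943 of all ranked genes. Other lists that held members were more mixed. On CPM, 14 of 18 Nodal, 10 of 16 Notch and 11 of 20 immediate early genes had a higher mean in the pair. With TMM scaling 14, 11 and 13 had. The median difference on log2(CPM + 1) was 0.70 for endoderm, 0.60 for organizer, 0.58 for neuroectoderm and 0.50 for margin genes, against -0.25 for all ranked genes. Where a list held members they are part of its median, as are 3 of the 10 endoderm genes. Housekeeping lists varied. Cytosolic ribosomal protein genes held 0 members among 90, although 61 had a higher mean in the pair on CPM and 80 with TMM scaling, and proteasome genes 0 among 50, while solute carriers held 1 among 206. Splicing genes held 3 among 50 and nucleolar genes 4 among 81. With so low a share over all genes, the counts of 0 and 1 are not read as a lack of members.

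**Figure D3:**
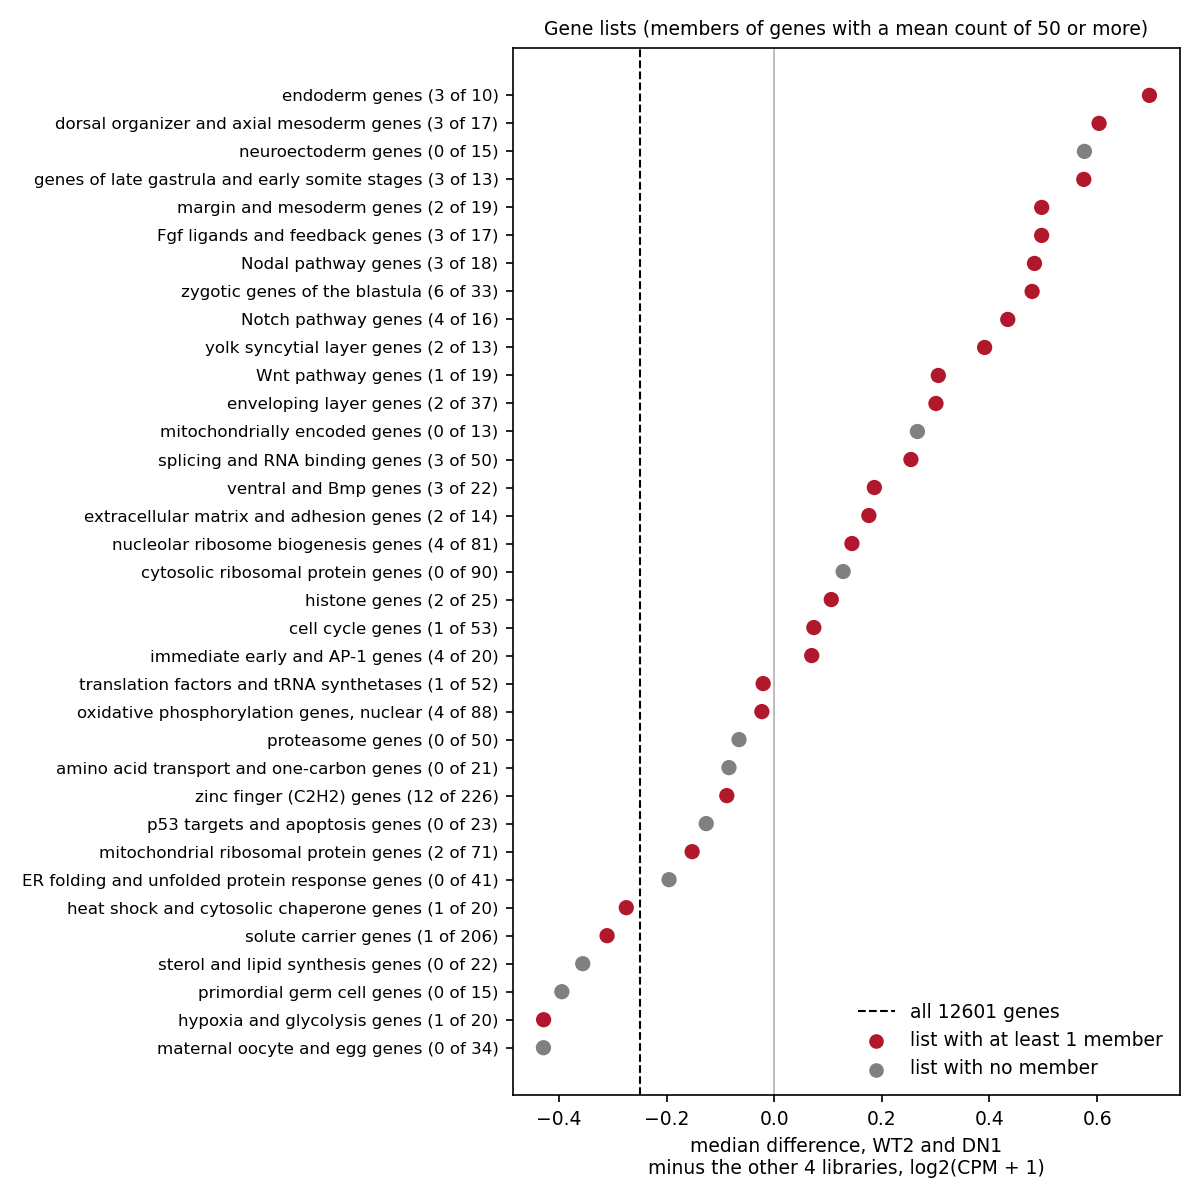
Median difference of each gene list between WT2 plus DN1 and the other 4 libraries on log2(CPM + 1), with members and ranked genes of each list in brackets, for lists with at least 10 ranked genes. Red points are lists with a member and grey points lists with none, and the dashed line is the median of all ranked genes, -0.25. Endoderm genes lie furthest right at 0.70 and maternal genes furthest left at -0.43. Members of a list are part of its median.

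Maternal and germ cell genes did not share this tendency. Maternal oocyte and egg genes held 0 members among 34. Beside the 1.59% share over all ranked genes, 0 members in a list of this size or smaller says little. On CPM, 28 of them had a lower mean in WT2 and DN1 than in the other libraries, compared with 8597 of all 12601 ranked genes, and with TMM scaling 21 had, compared with 6658. Their summed level was 6059 CPM in WT2 and 5865 CPM in DN1, against 7599 CPM in WT1, 9369 CPM in WT3, 6578 CPM in DN2 and 7186 CPM in DN3. The pair was lowest on CPM, but not with TMM scaling, where the sums were 6917 in WT2 and 6458 in DN1, against 7866, 8025, 6588 and 6478 in WT1, WT3, DN2 and DN3. WT3 was highest on either scale. Primordial germ cell genes held 0 members among 15, with sums of 1894 and 1826 CPM in WT2 and DN1, against 2654, 3851, 2449 and 2675 CPM in WT1, WT3, DN2 and DN3, and the pair was also lowest with TMM scaling. The defining germ cell markers did not all share this order, since *DDX4*, the germ cell RNA helicase Vasa, had 268 and 370.4 CPM in the pair and 243 to 355 CPM in the others. Zygotic blastula genes summed to 8150 and 9279 CPM in WT2 and DN1, against 7818, 5684, 6259 and 7297 CPM in WT1, WT3, DN2 and DN3. The part of maternal and zygotic transcript levels in the members' pattern was not tested.

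**Figure D4:**
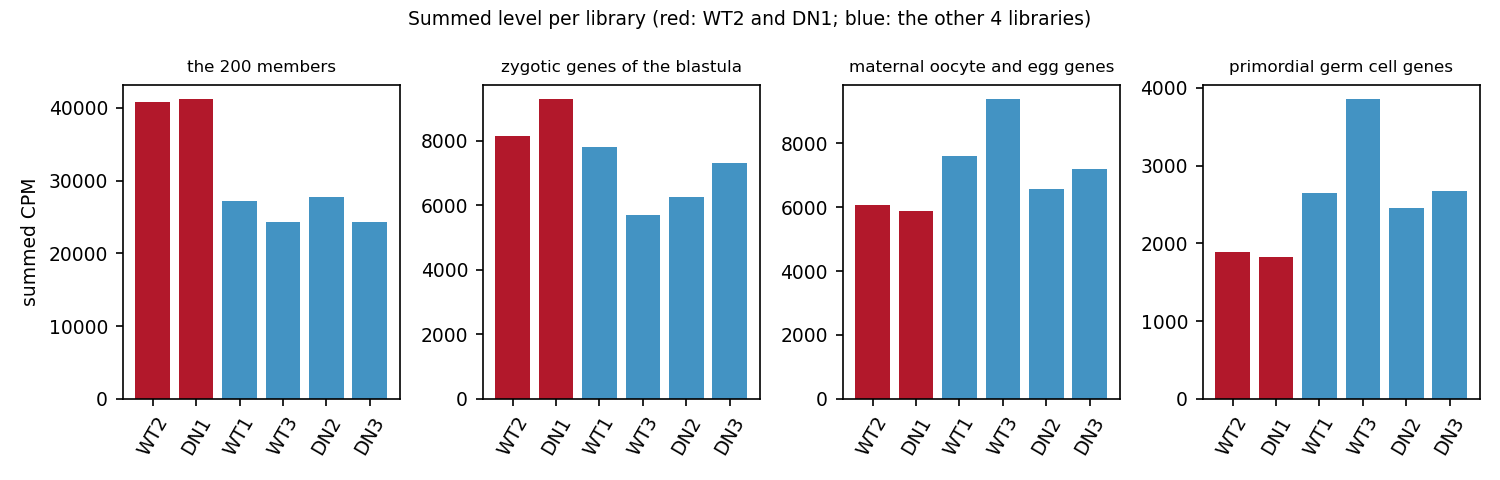
Summed CPM per library of the 200 members and of 3 gene lists, with WT2 and DN1 in red and the other 4 libraries in blue, each panel with its own axis from 0. Members took 4.09% of counts in WT2 and 4.12% in DN1, against 2.42% to 2.78% in the others. On CPM maternal genes were lowest in the pair, at 6059 and 5865 CPM, which TMM scaling did not keep, and highest in WT3, at 9369 CPM.

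Enveloping layer and yolk syncytial layer genes each held 2 members, among 37 and 13 ranked. The summed level of the enveloping layer list was 14828 CPM in WT2 and 17853 CPM in DN1, against 11463 to 14400 CPM in the other libraries. That of the yolk syncytial list was 6591 and 7686 CPM in the pair, against 4314 to 6534 CPM. Of 37 enveloping layer genes 27 had a higher mean in the pair on CPM, and of 13 yolk syncytial genes 11. Over all 12601 ranked genes 4004 had. With TMM scaling 34 and 11 had, beside 5943 of all ranked genes. The counts of each list include its 2 members, which the ranking placed higher in the pair. *GRHL1*, a grainyhead factor of epithelia, was an enveloping layer member, with 61.6 and 58.4 CPM in WT2 and DN1, against 34.9, 31.1, 39.5 and 42.7 CPM in WT1, WT3, DN2 and DN3. The defining markers of these layers were mixed. *krt4*, *krt5*, *krt8*, *krt92* and *cldne* of the enveloping layer were higher in WT2 and DN1 than in any other library. The margin of WT2 was narrow except for *cldne*. *krt4*, *krt5* and *krt92* had 2583, 1187 and 671 CPM in WT2, against 2559, 1140.5 and 651 CPM in DN2. *krt8* had 3067.5 CPM in WT2, against 3033 CPM in WT1. *krt18a.1* and *grhl3* were highest in WT1, with 2154.5 and 384 CPM. For the yolk syncytial layer, *HNF4A* and *GATA6* were highest in the pair. *mxtx2* was highest in WT1, with 92.9 CPM, and *apobb.1* had 0 CPM in DN1. The part of these layers in the pattern was not tested.

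The comparison that the study was designed for, Mcpip1 WT against Mcpip1 DN, was then read at the members. As the rule placed 1 high library in each group, every member's groups overlapped and a spread within both groups was built in. The counts of calls below are therefore not independent of the ranking. The edgeR fit used quasi-likelihood and the Benjamini-Hochberg correction, and all 200 members were among its 16126 genes. At the study's threshold (unadjusted p under 0.05 and a fold change over 1.5), 0 members were higher in Mcpip1 WT, where the background was 0.874% of genes tested, and 0 were lower, where it was 1.27%. At unadjusted p under 0.05 alone, 0 members passed by edgeR, beside a background of 2.21%, and 0 by DESeq2, beside 2.7%. At adjusted p under 0.05, 0 members passed by either tool, beside backgrounds of 0% by edgeR and 0.0062% by DESeq2. The members' log2 fold changes of Mcpip1 WT over Mcpip1 DN ran from -0.83 to 0.67 with a median of -0.05, against 0.01 over all genes tested. They lay above 0 in 85 members and below 0 in 115, and within 0.25 of 0 in 145. Their median standard error was 0.44, against 0.47 over all genes tested. Standard errors of edgeR fold changes here and below were back-calculated, as the absolute log2 fold change divided by the square root of the test's F statistic.

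*znf185* came nearest to a difference between the groups. It had 92.3, 188 and 79.2 CPM in WT1, WT2 and WT3, against 224, 150.4 and 148 CPM in DN1, DN2 and DN3. WT2 was the second highest of the 6 libraries, and the other Mcpip1 WT libraries were the lowest. Its log2 fold change was -0.49 ± 0.41 (SE, n = 3 each; edgeR adjusted p = 0.99977). *FGFR2*, *si:ch73-52f15.5*, *RDH10* and *IER5* were the next on the lower side, with log2 fold changes of -0.67, -0.83, -0.40 and -0.38. *RDH10*, an enzyme of retinoic acid synthesis, had 33.3, 57.8 and 26.3 CPM in WT1, WT2 and WT3, against 67.7, 45.3 and 47.5 CPM in DN1, DN2 and DN3. WT2 again lay among the Mcpip1 DN values.

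On the higher side the smallest p belonged to *mtif3*, a mitochondrial translation initiation factor. It had 10.6, 17.2 and 7.06 CPM in WT1, WT2 and WT3, against 12.8, 7.64 and 4.97 CPM in DN1, DN2 and DN3, with a log2 fold change of 0.48 ± 0.55 (SE, n = 3 each; edgeR adjusted p = 0.99977). *si:ch73-106l15.3*, *mtus1b*, *GATA3* and *si:dkey-50i6.6* followed, with log2 fold changes of 0.67, 0.31, 0.32 and 0.59. *tbxta* averaged 364 ± 199.7 CPM in Mcpip1 WT and 384 ± 149.7 CPM in Mcpip1 DN (SD, n = 3 each), a log2 fold change of -0.03 with a standard error of 0.50. *tbx16* averaged 1497 ± 511 CPM in Mcpip1 WT and 1513 ± 633 CPM in Mcpip1 DN (SD, n = 3 each), a log2 fold change of 0.02 with a standard error of 0.43 whose sign turned under other settings. For both genes the groups overlapped in full and the difference was far smaller than the spread between replicates. Each library was a separate pool, so these tests measure the spread between pools.

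Which library was left out decided the sign of the members' median. Without WT2 the median log2 fold change was -0.49, and 4 of 200 members lay above 0. Without DN1 it was 0.33, and 189 lay above 0. With WT2 and DN1 both left out it was -0.10. Leaving out WT1, WT3, DN2 or DN3 gave medians of 0.06, 0.18, -0.17 and -0.25. The opposite signs without WT2 and without DN1 follow from the way the members were chosen.

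**Figure D5:**
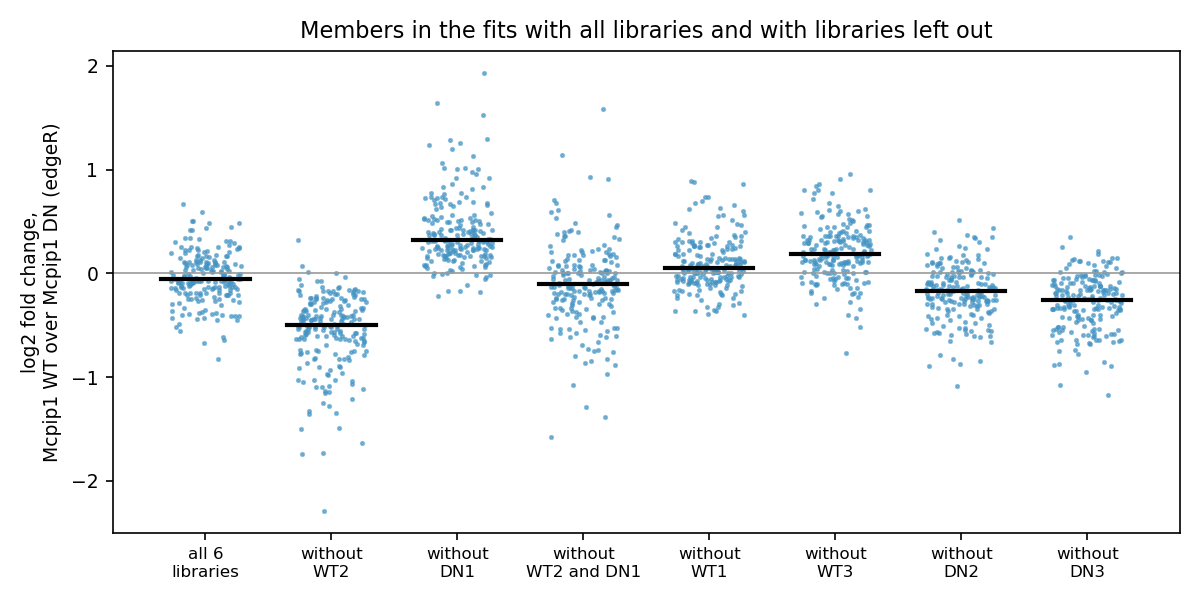
Log2 fold change of Mcpip1 WT over Mcpip1 DN by edgeR for each of the 200 members (points) and their median (black line), with all 6 libraries and with libraries left out. The median is -0.05 with all libraries, -0.49 without WT2, 0.33 without DN1 and -0.10 without both.

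Calls among the members followed the same order, and the direction of those without WT2 or without DN1 was likewise fixed by the choice of members. Without WT2, 14 members (7% of the 200) were called lower in Mcpip1 WT at the study's threshold by edgeR, beside a background of 3.14%, and 0 were called higher, beside 1.15%. They included *her8a*, *NOG*, *foxa3*, *SPRY4*, *IER5* and *RDH10*, named after their values were seen. Without DN1, 2 members (1%) were called higher, *si:ch73-106l15.3* and *si:dkey-50i6.6*, beside a background of 1.3%, and 0 were called lower, beside 1%. With WT2 and DN1 both left out, 6 members (3%) were called lower, beside a background of 2.75%, and 0 higher, beside 1.62%. In that fit of 2 libraries against 2, the share of members called lower was close to that of all genes.

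Those 6 genes, named after their values were seen, were *her8a*, *usp54a*, *znf185*, *cited4a*, *FOXP2* and ENSDARG00000083519. *her8a* had 6.82 and 12.5 CPM in WT1 and WT3, against 28.1 and 20.1 CPM in DN2 and DN3, a log2 fold change of -1.38 (edgeR adjusted p = 0.99942, n = 2 each). *usp54a* had 23.5 and 28.6 CPM in WT1 and WT3, against 55.9 and 44.1 CPM in DN2 and DN3. In both genes the groups did not overlap once the pair was removed. They were picked by their calls in this fit, so that separation is no further result. With the pair included, WT2 stood at 38.5 CPM for *her8a* and 80.7 CPM for *usp54a*, above every Mcpip1 DN library except DN1 for *usp54a*, which had 83.2 CPM.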

How the data were processed

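Poly(A) RNA of 6 zebrafish libraries (3 Mcpip1 WT, 3 Mcpip1 DN) was sequenced on an Ion Proton. Per the submitters' processing notes, reads were aligned to GRCz11 with STAR 2.7.10a and Bowtie2 2.4.4 and counted per gene with HTSeq. The HTSeq version, strand setting and Ensembl release are not given in the sources used here. The deposited values were raw whole-number counts per gene. The 5 rows for reads given to no gene (16.5% to 26.1% of each library) were left out. Gene counts were 17686041 to 24662219 per library.

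Groups were taken from the labels. CPM used summed gene counts, with a pseudocount of 1 in the score. Symbols were matched for 28988 of 32057 IDs. The Mcpip1 groups were compared with edgeR 4.0.16 (R 4.3.3; TMM, filterByExpr with a minimum count of 10, quasi-likelihood test, Benjamini-Hochberg), checked on simulated counts. DESeq2 1.42.0, plain library sizes, no filter, a replicate block, omitted libraries and other ranking settings were the alternatives. Named genes were *zc3h12a*, the 12 highest scores, the 10 members of highest mean CPM, 3 genes either side of the limit, the 5 smallest p in each direction, members on a list and families with 3 or more members. Other genes were named after their values were seen. The members, the lists and the role groups were chosen with earlier results of these data known. The values of 1 member are not reported here.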

Additional observations from a re-analysis of the deposited data

How the results depend on the processing

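Among the 200 members, the counts of calls between Mcpip1 WT and Mcpip1 DN stayed at 0 in each direction under every tool, scaling, filter and block tried. They moved where libraries were left out, to 0 to 2 members higher and 0 to 14 lower, and to 6 lower without WT2 and DN1 together. Over all genes tested, 141 were higher and 204 lower. Without the filter DESeq2 gave 296 higher and 328 lower, and edgeR 336 higher and 432 lower. Leaving out 1 library gave 54 to 272 higher and 68 to 507 lower, with both minima without WT1. Without WT2 and DN1 together there were 262 higher and 443 lower. At adjusted p under 0.05, edgeR called 0 genes at the filter, DESeq2 called 1, and edgeR without the filter 9, none of them a member. The median log2 fold change of the members stayed between -0.07 and -0.05 in the fits with all 6 libraries.

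Signs turned for single members. Leaving out 1 library gave log2 fold changes of -0.037 to 1.01 for *mtif3*, -0.17 to 0.66 for *mtus1b*, -0.13 to 0.77 for *GATA3*, -0.13 to 1.64 for *si:dkey-50i6.6*, -0.58 to 0.42 for *tbxta* and -0.35 to 0.50 for *tbx16*, in each case lowest without WT2 and highest without DN1. With plain library sizes *tbx16* stood at -0.016. The replicate block put it at -0.0018, changed no call among the members, and gave 144 genes higher and 288 lower over all genes. The numbers were not taken to pair the libraries. Deviations from the group means correlated by 0.006, -0.083 and 0.301 for numbers 1, 2 and 3. For unlike numbers the values ran from -0.36 (WT3 with DN1) to 0.291 (WT2 with DN1).

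The ranking depended on each library. With the mean of the pair over the mean of the others, 92 of the 200 members were kept, and with 1 library left out 66 (without WT2) to 156 (without WT3). TMM and DESeq2 scaling kept 161 and 163, and raised the genes with a score above 0 to 1627 and 1949, against 722 on CPM. Pseudocounts and count minimums kept 143 to 193. Counting error was greatest for the 59 members under 10 CPM, and 3 libraries a group limited the comparison of Mcpip1 WT with Mcpip1 DN.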
